A study of Mus musculus with 6 samples.

Results

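Erythroblasts in the E14.5 mouse fetal liver were compared by how near they lay to a C1q+ macrophage, in 1 section of 5 µm profiled in situ with probes for 477 genes. The members were chosen by measured counts and positions. A macrophage was a segmented cell in which the genes of the 3 C1q subunits, C1qa, C1qb and C1qc, summed to 10 counts or more. An erythroid cell had at least 8 counts of Slc4a1, the anion exchanger band 3 of the red cell membrane, and no C1q count. Near cells had their center within 15 µm of the center of a macrophage and far cells lay over 40 µm from every macrophage. The rule found 3112 macrophages and 48912 erythroid cells among 117329 cells, of which 7488 were near, 9618 were far and 31806 lay between. The whole series holds 521938 cells in 6 sections, 1 for each condition.

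The tissue came from wild-type C57BL/6 embryos and was fixed in formalin and embedded in paraffin. The section lay on the slide as 4 large pieces, and the sources used here do not say how many embryos they came from. No second section of this condition was analyzed, so near and far cells have no replicate and no test was made. Intervals of count ratios are exact, at 95% confidence, and cover counting error only. Intervals of area ratios were built from intervals of the medians and cover the spread among cells of this section only. A cell outline was a stained nucleus with an expanded border, so it can hold transcripts of its neighbors.

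In mouse hematopoietic tissue, many erythroblasts mature in clusters around a macrophage, known as erythroblastic islands. The macrophage anchors them through adhesion molecules such as Vcam1, hands over iron and engulfs the nuclei that they expel. The fetal liver is the main site of red cell formation at this stage of mouse development, and its erythroblasts lie at all distances from macrophages.

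Other erythroid genes were at higher levels in the gated cells but were not limited to them. Over all 48912 erythroid cells, Hemgn was seen in 98.5%, Rhd in 93.3% and Fech in 99.9%. The cells that had neither enough Slc4a1 nor enough C1q showed Hemgn in 79.6%, Rhd in 53.8% and Fech in 93.4%, and macrophages showed Fech in 93.7%. The mean of Hemgn was 10.02 counts per erythroid cell and 3.12 per cell of the ungated rest. Outlines of erythroid cells also held transcripts of other lineages, as 79.7% of near and 84.8% of far cells had 5 or more counts of the hepatocyte, endothelial, stromal, granulocyte and megakaryocyte lists together. Among macrophages, Adgre1 (F4/80) was seen in 75.5%, Cd5l in 74.3%, Marco in 75.6%, Timd4 in 67.5% and Vcam1 in 61.5%. Cd163 was seen in 1.7% of them. Enough Slc4a1 for the erythroid gate was also found in 1565 of the 3112 macrophages, that is, 50.3%. The requirement of no C1q count weighed unevenly on the groups, since it removed 57.2% of the cells with enough Slc4a1 within 15 µm of a macrophage and 25.6% of those beyond 40 µm.

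**Figure D1:**
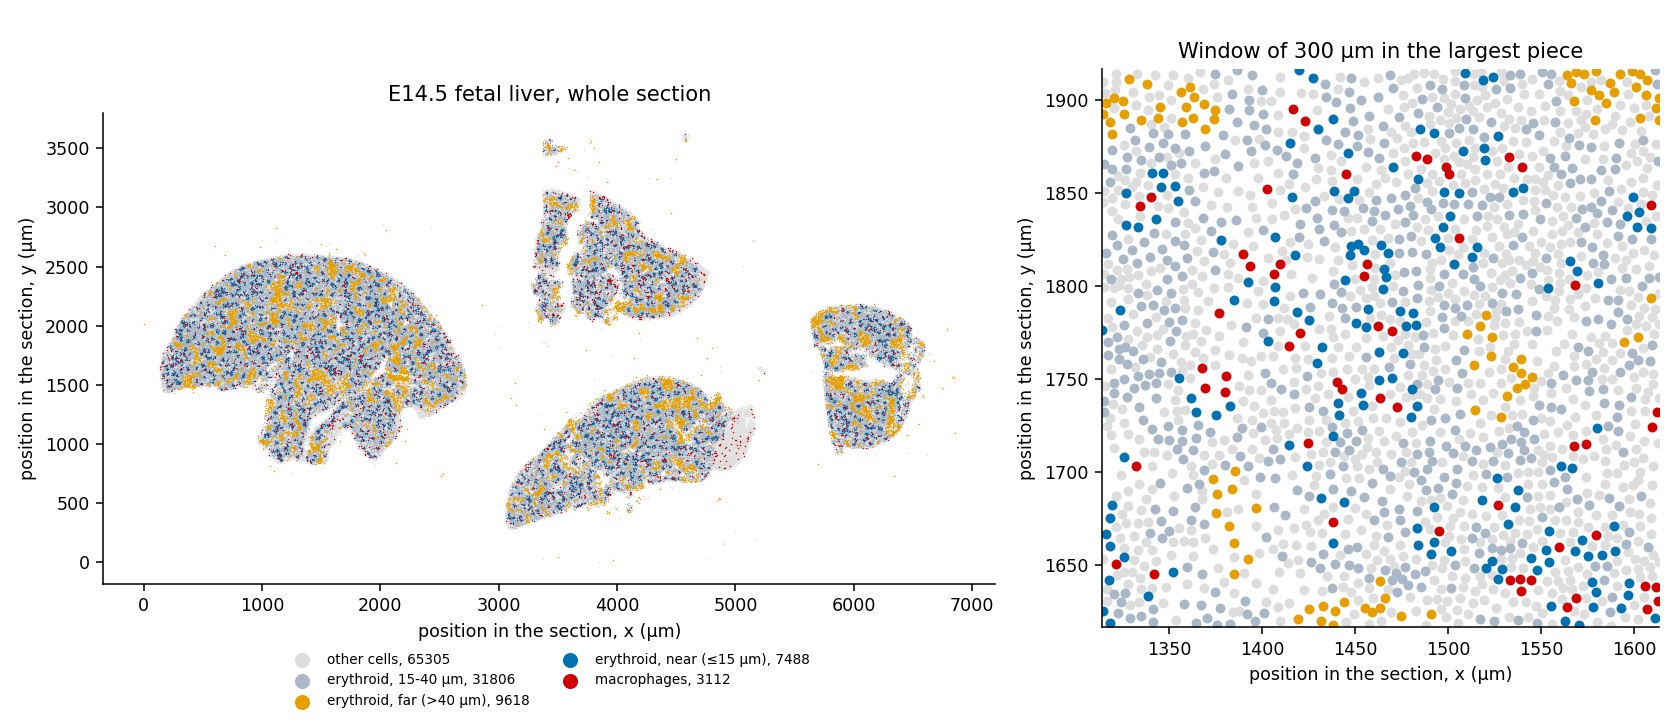
Positions of the cells in the E14.5 fetal liver section (x and y in µm), with every cell as a point, for the whole section on the left and for a window of 300 µm in its largest piece on the right. Macrophages (red, 3112) were spread through all 4 pieces, near erythroid cells (blue, 7488) surround them and far erythroid cells (orange, 9618) form patches between them.

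The macrophage list was higher and the stromal list lower near macrophages, whereas the summed late erythroid list differed by about 3% and the interval of the early erythroid list held equality. Levels are given as CPM, counts per 1000000 counts of the group, with C1qa, C1qb, C1qc and Slc4a1 left out of the total. Of the 473 other genes, 241 had at least 200 counts over both groups and were compared. Their median near/far ratio was 0.95, and 135 of them lay within 10% of equality. A gene was called lower near macrophages at a ratio of 0.8 or less and higher at the inverse of 0.8 or more. By this measure 20 genes were higher (8.3% of those compared) and 34 were lower (14.1%). Of the 20 higher genes, 13 belonged to the list of 26 macrophage genes and 2 to the monocyte list. The intervals of all 20 higher genes and of 32 of the 34 lower genes left out equality. These intervals do not cover variation over the tissue. The section was also split into 4 regions, which are not its pieces. Of the 20 higher genes, 16 lay above 1 in every region, and 11 passed the limit in every region. Of the 34 lower genes, 19 lay below 1 in every region.

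The macrophage list reached 31675 counts in near cells and 34291 in far cells, a mean of 4.23 and 3.57 per cell. Its summed CPM was 1.255 times as high near (interval 1.24 to 1.27). Of its 22 compared genes, 13 were higher, none was lower, and their median ratio was 1.36 beside 0.95 over all compared genes. The ratio of the list was alike over the tissue, from 1.22 to 1.32 in the 4 pieces. Cd163, Ms4a7, Siglec1 and Slamf8, the other 4 genes of the list, had too few counts to be compared.

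Timd4, Marco, Cd5l and Adgre1 had the highest ratios among the compared genes of the list. Timd4, a receptor for phosphatidylserine, had 0.0418 counts per near cell and 0.0138 per far cell, and it was seen in 4.07% and 1.37% of cells. Its CPM ratio was 3.20 (2.60 to 3.95), the highest of all 241 genes, and it lay between 2.99 and 3.74 in the 4 pieces. Marco, a scavenger receptor, had 0.202 counts per near cell and 0.0887 per far cell, a ratio of 2.41 (2.21 to 2.62). It was seen in 16.6% of near cells, so most near cells held no transcript even of this gene. Cd5l, a protein that macrophages secrete, reached a ratio of 2.37 and Adgre1 one of 2.20. Each of these 4 genes was more than 2 times as high near in all of the pieces, apart from Adgre1 in the largest, where it was 1.92.

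The other 9 higher genes of the list had ratios between 1.26 and 2.13. Spic, the factor of iron-recycling macrophages, had a ratio of 2.13 (1.84 to 2.47). Clec4f, a lectin of Kupffer cells, was at 2.08, Aif1 at 2.00 and Folr2, a folate receptor, at 1.99. Cd68, a lysosomal membrane protein, was at 1.53 and Ctss (cathepsin S) at 1.504. Mpeg1 was at 1.40, Tyrobp, a signaling adaptor of myeloid receptors, at 1.31 and Nr1h3, a sterol-sensing nuclear receptor, at 1.26.

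The other 9 compared genes of the list did not pass the limit at these distances and gates, and each of them apart from Dnase2a passed it as higher under at least 1 other setting. Values of the compared genes of the whole list under other settings reached from 0.72, past the lower limit, to 5.42. With near cells within 10 µm, Il18 was at 1.96, Slc40a1 at 1.37, Maf at 1.34 and Cybb at 1.29. With up to 9 C1q counts allowed, Vcam1, Maf, Mrc1, Slc40a1, Cybb, Laptm5 and Il18 passed, at 1.26 to 1.97. Without cells that held 5 or more counts of other lineages, Maf, Laptm5, Vcam1 and Mrc1 passed, at 1.28 to 2.01. At the distances of the rule, Slc40a1, the iron exporter ferroportin, was the most abundant of them, with 1.58 counts per near cell and 1.39 per far cell and a ratio of 1.21 (1.18 to 1.24). Vcam1, which binds erythroblast integrins, had 0.313 counts per near cell and 0.3002 per far cell, a ratio of 1.104 (1.05 to 1.17). In 2 of the 4 pieces, the Vcam1 ratio was below equality, at 0.93 and 0.97. Il18, a cytokine, had a ratio of 1.246 and lay just below the limit. Maf had a ratio of 1.13, Laptm5 of 1.08 and Mrc1, the mannose receptor, of 1.07. Dnase2a, the nuclease that degrades the DNA of engulfed erythroid nuclei, was at 1.03 with an interval of 0.98 to 1.08. Cybb, an oxidase subunit, and Cd300lf had ratios of 0.99 and 0.89, and the intervals of both held equality. Calls were also lost under other settings. Of the 20 genes called higher, 17 stayed so with near at 10 µm and 18 within tiles of 250 µm. With near at 20 µm 11 stayed, with far over 60 µm 12 and over the nucleus 12. After thinning to 50 counts per cell 10 of them stayed, and 5 without cells of other lineages, where fewer genes were compared.

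**Figure D2:**
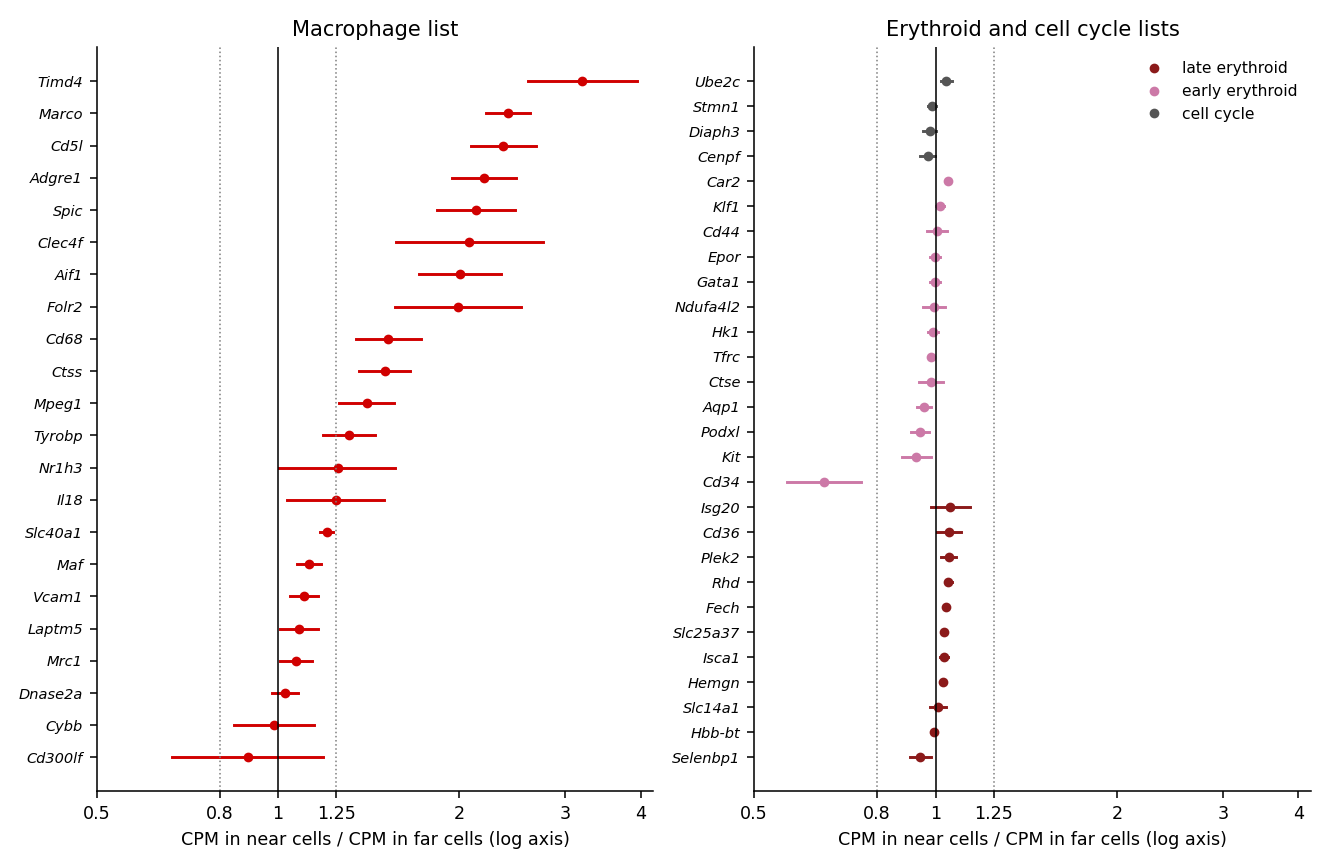
CPM in near cells divided by CPM in far cells (log axis) for genes of the macrophage list on the left and of the late erythroid, early erythroid and cell cycle lists on the right. Points are ratios over the section, lines are exact 95% intervals for counting error, and dotted lines mark 0.8 and its inverse. The macrophage genes reach from 0.89 to 3.20, whereas the erythroid and cell cycle genes other than Cd34 lie between 0.93 and 1.06.

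Some of these genes were also higher in other cells beside macrophages. Cells with under 8 counts of Slc4a1, no C1q and at least 20 counts of the hepatocyte list were split by the same distances, into 1282 near and 2006 far cells. In these hepatocyte-rich cells, Cd5l was 5.51 times as high near (3.58 to 8.72), Timd4 3.98 times (2.32 to 7.07), Marco 3.30 times (2.40 to 4.59) and Adgre1 2.12 times (1.47 to 3.05). Their summed macrophage list was at 1.13 (1.09 to 1.16). These outlines had mixed content, with a mean of 31.1 late erythroid-list counts when near and 32.4 when far. In cells with at least 10 counts of the granulocyte list, 305 near and 474 far, Cd5l was at 5.38 (1.88 to 18.8) and Marco at 2.94 (1.65 to 5.38). Timd4 at 1.31 (0.41 to 3.94) and Adgre1 at 1.13 (0.79 to 1.59) had intervals that held equality there, and the summed list was at 1.06. Outlines of granulocyte-rich cells were mixed as well, with a mean of 22.6 late erythroid-list counts when near and 21.2 when far. Granulocyte-rich cells held a mean of 9.03 macrophage-list counts when near and 9.18 when far. Laptm5 gave 2.26 of these counts when near and 2.53 when far, and Tyrobp gave 1.67 and 1.79. Whether the cells themselves or their neighbors made these transcripts was not tested.

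The genes that were higher near were enriched in macrophages. In macrophages, Timd4 was 113 times its CPM in far erythroid cells, Cd5l 78.1 times, Spic 63.5 times and Clec4f 53.6 times. Of the 34 compared genes that were at least 5 times as high in macrophages, 18 were among the 20 higher near. The other 2, Rgs5 and Rsad2, were at 3.39 and 3.904. Over the 241 genes, the log2 near/far ratio and the log2 ratio of macrophages to far cells had a Pearson correlation of 0.47 and a Spearman correlation of 0.14. This describes genes of 1 section that share the far cells as denominator. At the distances of the rule, Cybb (15.6 times in macrophages), Laptm5 (13.6 times) and Cd300lf (12.1 times) had near/far ratios between 0.89 and 1.08. With macrophages from 20 C1q counts, Cybb was at 1.34 and Cd300lf at 1.62, and with macrophages from 5 C1q counts, Laptm5 was at 1.33.

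**Figure D3:**
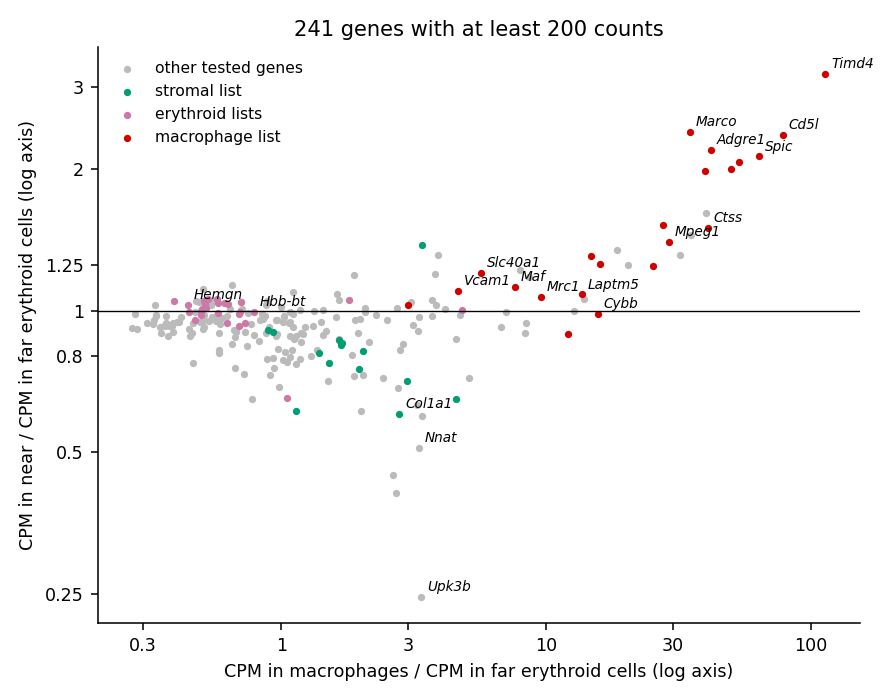
Near/far CPM ratio of erythroid cells (vertical, log axis) against the CPM ratio of macrophages to far erythroid cells (horizontal, log axis), 1 point for each of the 241 compared genes. Genes over 30 times as high in macrophages lie above equality, erythroid genes cluster at 1, and stromal genes lie mostly below 1.

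The leading macrophage genes were at lower levels with each step away from a macrophage, up to about 20 to 30 µm. Within 10 µm, 2146 erythroid cells held Marco at 1834 CPM. At 10 to 15 µm it was at 974 CPM, at 15 to 20 µm at 659 CPM and at 20 to 30 µm at 504 CPM, after which it stayed between 479 and 503 CPM. Timd4 was at 425 CPM within 10 µm, at 185 CPM at 10 to 15 µm and at 66.6 CPM beyond 60 µm. The summed list followed, from 30683 CPM within 10 µm to 20124 CPM at 20 to 30 µm. Erythroid cells with C1q counts, which the rule left out, held more Marco at both distances. Near cells with 1 or 2 C1q counts had it at 3032 CPM and those with 3 to 9 at 7872 CPM, against 17599 CPM in macrophages. Far cells had it at 1777 CPM and 7320 CPM in the same classes of C1q count. When erythroid cells were allowed up to 9 C1q counts, the macrophage list was at 1.74 and 37 genes were higher near. The 1388 cells in the last 1 µm inside the near limit had the macrophage list at 21199 CPM, and the 1366 cells in the first 1 µm outside it were at 22427 CPM. On either side of the far limit, the list was at 19932 CPM (774 cells at 39 to 40 µm) and 20211 CPM (743 cells at 40 to 41 µm).

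**Figure D4:**
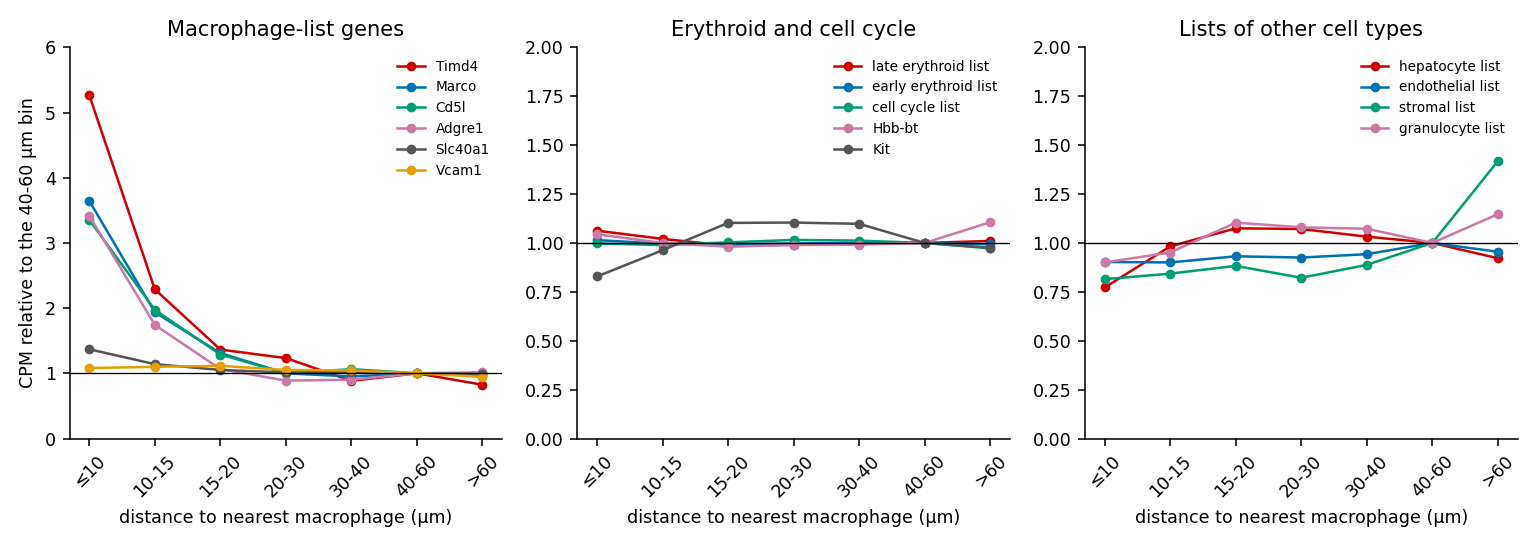
CPM of erythroid cells by distance to the nearest macrophage (µm, bins on the horizontal axis), relative to the 40 to 60 µm bin, for macrophage-list genes, for erythroid and cell cycle genes and lists, and for lists of other cell types. Marco goes from 1834 CPM within 10 µm to 504 CPM at 20 to 30 µm, whereas the late erythroid list stays between 421739 and 454523 CPM.

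The position of transcripts within the outline was measured as well. Over the nucleus lay 55.8% of the macrophage-list counts of near cells and 56.8% of those of far cells. When only transcripts over the nucleus were counted, the list ratio was 1.21, Marco was at 2.40 and Timd4 at 2.35. Cd5l was at 2.34 there, whereas Cd68 and Ctss were lower than over the whole outline, both at 1.27.

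Genes of late erythroid maturation differed by a few percent at the distances and gates of the rule. The 13 genes of this list summed to 73.6 counts per near cell and 75.5 per far cell, and their CPM ratio was 1.031 (1.027 to 1.034). None was called higher or lower, 11 of 13 lay above 1, and their median was 1.04. Under other settings, single genes of the list lay between 0.84 and 1.28. With macrophages from 5 C1q counts, Isg20 passed the limit as higher. In the 4 pieces the list lay between 1.02 and 1.04. Fech, the last enzyme of heme synthesis, had 11.8 counts per near cell and 11.99 per far cell, a ratio of 1.04 (1.03 to 1.05), and Slc25a37, the mitochondrial iron importer mitoferrin, was at 1.03. Rhd, a membrane gene of the Rh complex, was at 1.05. Hemgn, an erythroid nuclear protein, was at 1.03, and Isca1, of iron-sulfur cluster assembly, was also at 1.03. Isg20 was at 1.06, Cd36 and Plek2 were at 1.05, and Slc14a1, a urea transporter, was at 1.01.

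Hbb-bt, which encodes adult beta globin, had 14.03 counts per near cell and 14.9 per far cell, a ratio of 0.995 (0.987 to 1.003). It was at 1.03 and 1.02 in 2 of the pieces and at 0.96 and 0.98 in the others. By distance, Hbb-bt was at 86900 CPM within 10 µm, at 81645 CPM at 15 to 20 µm and at 92028 CPM beyond 60 µm. Selenbp1 was lowest in the list, at 0.94 (0.91 to 0.98). Per cell, without division by the total, the sign of the late list turned to 0.97, as near cells held fewer transcripts. Medians were 170 transcripts per near cell (quartiles 130 and 221) and 180 per far cell (138 and 232).

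Of the 13 early erythroid genes, 3 lay above 1 and the others below it, whereas their sum was close to equality. Their summed CPM ratio was 1.002 (0.997 to 1.008), the median of the 13 genes was 0.99, none was higher and 1 was lower. Tfrc, the transferrin receptor through which erythroblasts take up iron, had 6.84 counts per near cell and 7.36 per far cell, a ratio of 0.98 (0.97 to 0.99). The regulators Gata1, Epor and Klf1 lay at 1.00, 1.00 and 1.02. Car2, a carbonic anhydrase, was at 1.05 and held 52673 of the 213950 near counts of the list. Cd44, an adhesion receptor, was at 1.01, and Aqp1, a water channel, was at 0.96.

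Of the other early genes, Cd34 was lower near macrophages and the rest did not pass the limit. Ctse was at 0.98, and Hk1 and Ndufa4l2 at 0.99. Kit, the stem cell factor receptor, was seen in 14.3% of near and 15.7% of far cells and had a ratio of 0.93 (0.88 to 0.98), with 0.88 to 1.00 in the pieces. Its level peaked between these groups, at 2061 CPM at 20 to 30 µm, against 1546 CPM within 10 µm and 1820 CPM beyond 60 µm. Podxl had a ratio of 0.94. Cd34, a marker of progenitors that endothelial cells share, had 301 counts in near cells and 626 in far cells, a ratio of 0.65 (0.57 to 0.75), and lay between 0.50 and 0.93 in the pieces. The endothelial list as a whole, at 2.04 counts per near cell and 2.38 per far cell, was at 0.91 (0.89 to 0.93), and its part in the Cd34 value was not tested.

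None of the 4 cell cycle genes passed the limit, and their sum had a ratio of 1.00 (0.99 to 1.01). Ube2c, which acts in mitotic exit, was at 1.04 (1.02 to 1.06) and Cenpf, a kinetochore protein, at 0.970 (0.943 to 0.998), so these 2 left out equality on opposite sides. Stmn1, a microtubule regulator, was at 0.99 and Diaph3 at 0.98.

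Of 8 genes tied to island signaling and adhesion, 1 was higher, close to the 8.3% of all compared genes, and none was lower. Their summed ratio was 0.94 (0.94 to 0.95), with 0.92 to 0.95 in the pieces. Trf, the transferrin that carries iron to Tfrc and is made by hepatocytes, had 5.36 counts per near cell and 6.25 per far cell and a ratio of 0.91 (0.90 to 0.92). Selenop, a selenium carrier, was at 0.97. Igf1, a growth factor of erythroblasts, was the gene past the limit. It was picked out after its value was seen, with 325 counts in near cells and 273 in far cells and a ratio of 1.62 (1.37 to 1.91). It was 39.9 times as high in macrophages as in far cells.

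The hepatocyte, endothelial and granulocyte lists were below equality by less than 10% over the section, and between pieces they lay from 0.91 to 0.96, from 0.72 to 1.03 and from 0.82 to 1.06, respectively. Without outlines over 3 times as large as their nucleus, the endothelial list was at 0.97. Without cells within 100 µm of the outer edge, it was at 0.88. Lower near were 1 of 19 hepatocyte, 2 of 13 endothelial and 1 of 10 granulocyte genes, beside 14.1% of all compared genes, and none of the 4 megakaryocyte and 6 monocyte genes. Cd93, an endothelial receptor, was at 0.76, at 0.88 without these wide outlines and at 0.71 without the cells near the edge. Hp (haptoglobin) was at 0.81. The hepatocyte list had a ratio of 0.94 (0.93 to 0.94), with Ambp at 0.93 and Gc at 0.95. It was lowest within 10 µm, at 51012 CPM, and highest at 15 to 20 µm, at 70986 CPM. The granulocyte list was at 0.92, with the granule enzymes Mpo at 0.91 and Elane at 0.90. The megakaryocyte list was at 1.00, with 0.92 to 1.26 in the pieces. The monocyte list was at 0.95 (0.90 to 1.01), with 0.79 to 1.16 in the pieces. Of its 6 compared genes, 2 were higher, beside 8.3% of all compared genes. The hypoxia and stress list was at 0.97. The interferon list was at 1.09 (1.03 to 1.16), but at 0.95 in the second largest piece.

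The stromal list had the lowest ratio of the lists, with 2.02 counts per near cell and 2.73 per far cell, a ratio of 0.78 (0.77 to 0.80). Of its 14 compared genes, 6 were lower, beside 14.1% of all compared genes, and 1, Rgs5, was higher at 1.38 (1.05 to 1.82). Col1a1, a fibrillar collagen chain, had 0.251 counts per near cell and 0.438 per far cell, a ratio of 0.61 (0.57 to 0.64). Col1a2 was at 0.75, Ptn, a secreted growth factor, at 0.71, and Pdgfrb, a receptor of mural cells, at 0.78. Ccdc80 was at 0.81. Nnat, of no list, was lowest of all genes with at least 1000 counts, at 0.51 (0.45 to 0.58). Gap43 and Mylk, also of no list, were both at 0.80, and Omp was at 1.13 (1.0008 to 1.29). Upk3b, which marks the mesothelium on the liver surface and was picked out after its value was seen, had 64 counts in near cells and 353 in far cells, a ratio of 0.25 (0.19 to 0.32).

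These values varied with the outline and the position of the far cells. Outlines over 3 times as large as their nucleus made up 10.6% of far and 3.91% of near cells, and 26.6% of far and 20.2% of near cells lay within 100 µm of the outer edge of a piece. Without the wide outlines, the stromal list was at 0.98 (0.96 to 1.00), Col1a1 at 0.96, Nnat at 0.95 and Ptn at 1.05, and 8 genes in place of 34 were lower. Without the cells near the edge, the stromal list was at 0.87 and 17 genes were lower. Upk3b, at 0.25 over all cells, was at 0.503 without the wide outlines and at 0.67 without the edge. The macrophage list was at 1.26 and 1.251 in the same cells. The summed stromal list also differed between pieces, from 0.66 to 0.91, and Col1a1 differed from 0.39 to 0.82. In the 4 regions the summed stromal list lay between 0.69 and 1.04, so it was not below equality in all of them.

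Near cells were smaller. The median outline was 46.3 µm² in near cells (quartiles 36.9 and 58.7) and 50.6 µm² in far cells (39.9 and 67.4), a ratio of 0.91 (0.90 to 0.93). The distributions overlapped over most of their range, and far cells had a longer upper tail, with a 90th percentile of 97.3 µm² against 73.7 µm². The median nucleus was 27.0 µm² in near cells and 28.4 µm² in far cells, a ratio of 0.95 (0.94 to 0.97). In the 4 pieces, the outline ratio lay between 0.90 and 0.93 and the nucleus ratio between 0.92 and 0.97. The outline was smallest within 10 µm, at 44.98 µm², and 49.4 µm² at 15 to 20 µm. Nuclei were 26.3 µm² within 10 µm, 28.5 µm² at 15 to 20 µm and 27.0 µm² beyond 60 µm, so cells at the farthest distance had nuclei of the near size and the ratio of near cells to them was 1.00. A limit on the distance between centers also limits the size of the outlines that can meet there, and its part in these values was not tested.

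**Figure D5:**
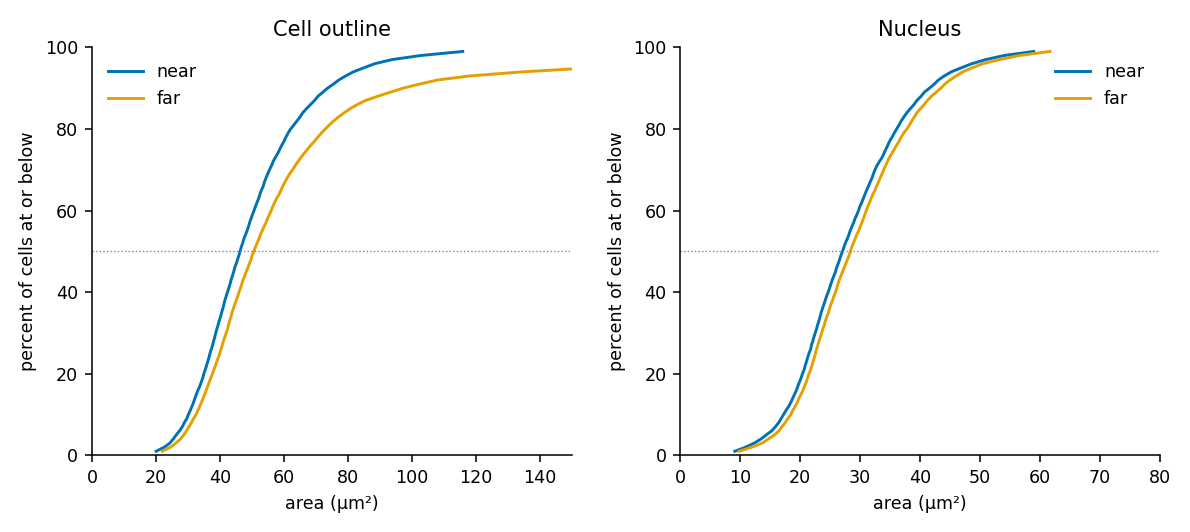
Percent of cells (vertical) with an area at or below the value on the horizontal axis (µm²), for the cell outline on the left and the nucleus on the right, over 7488 near and 9618 far erythroid cells. The curves cross the 50% line at 46.3 and 50.6 µm² for the outline and at 27.0 and 28.4 µm² for the nucleus, and the far outlines have the longer tail.

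Density and crowding were close. Near cells had a median of 25 and far cells of 24 other cells within 20 µm, of which 17 and 16 had enough Slc4a1. Transcripts per area were 3.75 per µm² in near and 3.66 per µm² in far cells. The most abundant negative control probe, which matches no mouse transcript, gave 105 counts over the section, against 20952143 gene transcripts.

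The same rule was applied to the other sections with at least 50 cells in each group. The P8 bone marrow, with 850 near and 3555 far cells, had the macrophage list at 1.12 (1.08 to 1.16) and Marco at 2.89 (2.07 to 4.00). Timd4 at 1.37 (0.81 to 2.21), Cd5l at 1.37 (0.65 to 2.68) and Adgre1 at 1.27 (0.98 to 1.63) had intervals that held equality there. Its late and early erythroid lists were at 1.02 and 1.03, its cell cycle list was at 1.08, and its outline ratio was 0.91. The spleen of mice treated with PHZ (phenylhydrazine, which destroys red cells and drives stress erythropoiesis), with 2258 near and 1264 far cells, had the macrophage list at 1.16 (1.13 to 1.20). In it, Cd5l was at 1.58 (1.297 to 1.93) and Adgre1 at 1.597 (1.14 to 2.28), whereas Marco at 1.21 (0.98 to 1.503) had an interval that held equality. There the late list was at 0.95, the cell cycle list at 1.14 and the outline ratio at 0.78. Near cells of this spleen held a median of 147 transcripts and far cells of 125. The E13.5 fetal liver, measured on a panel of 5050 genes that holds 18 of the 26 macrophage genes, gave 62 near and 292 far cells. It held 60 macrophages by the rule, against 592 in the P8 bone marrow and 9045 in the PHZ-treated spleen. The gates are raw counts that were not adjusted for panel, run or section size, so these numbers do not compare how common macrophages were. In its 62 near cells, Epor had 32 counts and Gata1 had 5. In the 7488 near cells of the E14.5 section they had 22154 and 17424. Its macrophage list had 35 near and 97 far counts, a ratio of 1.90 (1.254 to 2.83). In it, Cd5l had 7 near and 10 far counts, a ratio of 3.69 (1.19 to 10.7), Adgre1 had 3 near and 2 far counts, at 7.91 (0.91 to 94.7), and Marco had 0 near and 3 far counts (0 to 12.8). The differences between sections were not tested.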

How the data were processed

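Imaging-based in situ transcript data (Xenium) of the E14.5 fetal liver section were analyzed. The authors deposited counts, the number of transcripts of each gene in a segmented cell, without normalization, with positions and areas of cells, and single transcripts with a quality score. The run description names Xenium Onboard Analysis 1.7.1.0 for this section and 3.1.0.4 for the E13.5 fetal liver. The deposited counts equaled those rebuilt from transcripts with a score of at least 20, of which 97.2% lay in a cell and 57.2% of these over a nucleus. The members, gene lists and alternatives were chosen with earlier results of these data known. Near and far counts were summed and divided by totals without C1qa, C1qb, C1qc and Slc4a1, and ratios took an exact conditional interval for 2 Poisson counts. Medians took order-statistic intervals over cells. Bounds of area ratios divided the opposite ends of 2 such intervals, so they are not exact intervals of the ratio. Genes were compared from 200 counts over both groups. Names were taken from the 10 largest and 10 smallest ratios among genes with at least 1000 counts, the compared genes of the macrophage, erythroid and cell cycle lists, and the 2 most abundant genes of each other list. Genes outside this are said to be chosen after their values were seen, which also holds for Rgs5 and Rsad2. Each group lies in 1 section, so cells are no replicates and no p-value is given. Pieces and regions of the section are not replicates either. Outer edges were drawn from squares of 20 µm that held a cell. Some genes of the late erythroid list are not reported here by name. Doublets were not called, and transcripts of neighboring cells were not removed. The aged bone marrow and the untreated spleen were not used here. Calculations used Python with numpy, scipy and pandas, tested on simulated data.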

Additional observations from a re-analysis of the deposited data

Results flagged for a closer look

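The stromal list had opposite directions in 2 sections compared by the same rule. Its near/far ratio was 0.78 in the E14.5 fetal liver and 1.44 (1.35 to 1.53) in the spleen of PHZ-treated mice. It was 0.67 (0.64 to 0.69) in the P8 bone marrow and 0.95 (0.68 to 1.31) in the E13.5 fetal liver. Without outlines over 3 times the nucleus, the E14.5 value was 0.98 (0.957 to 1.001). Each condition has 1 section, and the difference was not tested.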

How the results depend on the processing

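Other settings were tried in 17 ways, and in 3 more chosen after seeing the data (the outer 100 µm left out, wide outlines left out and the macrophage list without Slc40a1). Of 111 values of the 7 results, 48 stayed within the counting interval or, for counts, within 1.5 times, and 63 did not. The count of genes higher near, 20, was 12 with near at 20 µm, 33 with macrophages from 20 C1q counts, 37 with C1q allowed up to 9 counts, 9 without cells holding 5 or more counts of other lineages, 13 over the nucleus, 10 after thinning to 50 counts per cell, 35 and 7 with gene minimums of 50 and 1000 counts, and 11 at a ratio of 1.5. The count of genes lower near, 34, was 60 with near at 10 µm, 75 and 57 with macrophages from 5 and 20 C1q counts, 17 from 16 Slc4a1 counts, 5 without cells of other lineages, 8 after thinning, 72 and 7 with those gene minimums, 12 at 1.5, 17 without the outer 100 µm and 8 without outlines over 3 times the nucleus. Fewer genes were compared after thinning (164) and without cells of other lineages (77). Of the 34 genes called lower, 33 stayed so within tiles of 250 µm, 24 with near at 10 µm and 22 with near at 20 µm. With far over 60 µm, 31 genes were lower, of which 10 were among the 34. Over the nucleus 17 of the 34 stayed, after thinning 7 and without wide outlines 7. Without cells of other lineages 0 of them stayed.

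The macrophage list was at 1.52 and 1.15 with near at 10 and 20 µm, 1.16 and 1.32 with macrophages from 5 and 20 C1q counts, 1.31 from 16 Slc4a1 counts, 1.74 with C1q allowed, 1.41 without cells of other lineages, 1.21 over the nucleus, 1.19 per cell and 1.29 without Slc40a1, above equality throughout. The late erythroid list was at 1.06 and 1.01 with near at 10 and 20 µm, 1.02 with far over 60 µm, 1.05 and 1.04 with macrophages from 5 and 20 C1q counts, 1.02 from 16 Slc4a1 counts, 1.03 with C1q allowed, 1.01 without cells of other lineages, 1.04 within tiles of 250 µm, 1.02 over the nucleus, 1.04 without the outer 100 µm, 1.02 without wide outlines, and below equality only per cell, at 0.97. The early erythroid list was at 1.02 with near at 10 µm, 1.01 with far over 60 µm, 1.02 and 1.01 with macrophages from 5 and 20 C1q counts, 0.96 without cells of other lineages, 0.95 per cell and 0.99 without wide outlines.

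The outline ratio was 0.89 and 0.95 with near at 10 and 20 µm, 0.86 with far over 60 µm, 0.82 and 0.95 with macrophages from 5 and 20 C1q counts, 0.95 with C1q allowed, 0.90 without cells of other lineages, 0.89 within tiles and 0.95 without wide outlines. The nucleus ratio was 0.93 and 0.98 with near at 10 and 20 µm, 1.00 with far over 60 µm and 0.97 with C1q allowed.

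Of the 21 named genes past the limit, 3 turned to the other side of equality, and the other genes past it were not followed one by one. Col1a2 was at 1.00 without cells of other lineages, Nr1h3 at 0.86 with macrophages from 5 C1q counts, and Ptn at 1.00 with macrophages from 20 C1q counts, 1.03 without the outer 100 µm and 1.05 without wide outlines. The causes were not tested. Near and far cells were matched by place in tiles of 250 µm, of which 115 held both groups, and there the macrophage list was at 1.24 and the counts of genes were 21 higher and 36 lower. No pairing of replicates exists, as the condition has 1 section. With about 170 transcripts per cell, genes below 200 counts over both groups were not compared, which left out 232 genes.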
